A study of Ovis aries with 2 samples.

Results

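At 6 months of age, 146 pituitary cells of Hu sheep carried the gonadotropin transcripts LHB and CGA together with IGFBP1, the gene of insulin-like growth factor binding protein 1. These IGFBP1-positive gonadotrophs were 55.1% of the 265 gonadotrophs of the 6-month library (exact 95% interval 48.9% to 61.2%). They were 146 of 29621 kept cells in the series. The cells were chosen by measured values: at least 500 genes and 1000 UMIs (unique molecular identifiers, each standing for 1 captured transcript), LHB at 0.3% and CGA at 3% of UMIs or more, PRL under 25%, GH under 10%, and at least 2 IGFBP1 UMIs. The same limits without IGFBP1 are called the gonadotroph gate here. Against the 103 gate cells of the same library with no IGFBP1 UMI, the IGFBP1-positive cells held little FSHB and more NPPC, GADD45A, SAT1, HHIP and FOXO1. Against the 1309 gate cells of the 3-month library they also held more SPP1, DIO2, KLHL41, MAOB and PCSK1, and less of most immediate early genes. DIO2, KLHL41, MAOB and, in summed counts, SPP1 were at least 2-fold higher than in the IGFBP1-zero cells too. In the 34 IGFBP1-zero cells with under 2 FSHB UMIs, NPPC, SPP1, KLHL41 and PCSK1 were within 2-fold of the IGFBP1-positive cells.

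Gonadotrophs secrete luteinizing hormone and follicle-stimulating hormone. Both share the alpha subunit encoded by CGA and differ in the beta subunit, encoded by LHB or FSHB. Release is driven by gonadotropin-releasing hormone acting on its receptor GNRHR, and FSHB transcription also depends on activin signalling and the factor FOXL2. IGFBP1 is a secreted protein that binds insulin-like growth factors and limits or extends their access to receptors. It is best known from liver, where fasting, FOXO1 and glucocorticoids raise it and insulin lowers it, and from the uterine decidua.

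The series profiled dissociated anterior pituitary of Hu sheep at 3 and at 6 months by droplet single-cell RNA sequencing, with 1 library per age. Both labels give the breed, the tissue and the age, and no treatment or genotype. How many animals and of which sex entered each library is not given in the sources used here, so age, animal and library cannot be told apart. No test across samples was possible: ratios carry 95% intervals that cover counting error only, and cells do not stand for replicate animals. The libraries held 18961 barcodes at 3 months and 15031 at 6 months, with median depths of 4361 and 7434 UMIs. They shared 81 barcodes. Of the IGFBP1-positive cells, 1 had a barcode that also occurs at 3 months, and none of the 3-month gate cells shared a barcode with them.

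The groups differed in depth. The IGFBP1-positive cells held a median of 22334 UMIs (1777 to 55984), the IGFBP1-zero cells 14660 (1290 to 31681) and the 3-month gate cells 11478 (1008 to 44685). Since an IGFBP1 UMI is easier to find in a deeper cell, shares of cells with a UMI are also given after each cell was thinned at random to 5000 UMIs, which left 127, 87 and 978 cells. Levels are in CPM, UMI counts summed over a group and scaled to a common total by edgeR's trimmed mean of M-values (TMM), and log2 ratios are between such levels. Values per cell use the cell's own UMI total. A gene counted as measured with at least 100 UMIs over both groups. It counted as apart when, in addition, it differed at least 2-fold, was found in at least 10% of the cells of the higher group and there reached at least 0.5 of the all-cell level of that library. The 5 genes of the choice of cells were left out of these counts.

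IGFBP1 itself ranged from 2 to 124 UMIs per positive cell, with a median of 13. Per cell this was 53.6 to 5065 CPM, with a median of 859. These values describe the choice and are not a result. Just inside the limit, 8 cells had exactly 2 UMIs, and just outside it 16 gate cells had 1. The cells with 2 IGFBP1 UMIs held 42.4 CPM of FSHB and 3862 CPM of NPPC on plain totals, and those with 1 held 2013 and 2545 CPM. The cells with 1 UMI were shallower, with a median of 10804.5 UMIs, and 4 of the 16 had an FSHB UMI.

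IGFBP1 transcripts lay almost wholly inside the gate. The positive cells held 3026 of the 3235 IGFBP1 UMIs in kept 6-month cells (93.5%). Of 12988 kept 6-month cells outside the gate, 62 (0.477%) had an IGFBP1 UMI at a median depth of 9413 UMIs. Among cells that should lack the transcript, 5 of 1626 with at least 2 UMIs of the leukocyte gene PTPRC had 1 (0.308%, median depth 5205). Against this background the share in the gate was 61.1%, at a median depth of 18221. At 3 months, 1 gate cell of 1309 had a single IGFBP1 UMI and no cell had 2, which at a limit of 3 counts of 1309 cells allows a share of up to 0.229%. That was the only IGFBP1 UMI in the kept cells of the 3-month library. Thinned to 5000 UMIs, 43.1% of 6-month gate cells still had at least 2 IGFBP1 UMIs.

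The cells were chosen as gonadotrophs by LHB and CGA, and they also held GNRHR and TGFBR3L. Other gonadotroph genes were lower than in IGFBP1-zero cells and at 3 months: FSHB (log2 ratios -6.34 and -5.28), FOXL2 (-1.27 and -1.45) and ESR1 (-1.65 and -2.10). GATA2 (-1.33) was lower than in IGFBP1-zero cells, and PITX1 (-1.05) and EGR1 (-2.41) than at 3 months. PGR was higher in both comparisons (1.28 and 1.53), and SCG3 (1.49) and NR0B1 (1.14) against 3 months. All 146 held LHB and CGA by choice. GNRHR was found in 118 cells, and TGFBR3L, a coreceptor for inhibin B in gonadotrophs, in every cell, at 2825 CPM against 2732 in IGFBP1-zero cells and 2599 at 3 months. NR5A1, which encodes the gonadotroph factor SF-1, had 0 UMIs in them, against 1 UMI in IGFBP1-zero cells and 32 at 3 months. It was hardly captured in any of the groups. The thyrotroph hormone gene TSHB had 4 UMIs and the corticotroph gene POMC 12. Lactotroph markers, nearly all PRL, held 38896 CPM, against 19233 in IGFBP1-zero cells and 10231 at 3 months.

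Of the genes lower in IGFBP1-positive cells, FSHB came first in both comparisons, in the order of the interval bound nearer to 0. Per cell, FSHB had a median of 0 and a highest value of 782 CPM in IGFBP1-positive cells, a median of 2773 and a highest value of 9469 in IGFBP1-zero cells, and a median of 267 and a highest value of 10158 at 3 months. No IGFBP1-positive cell reached 1000 CPM, while 63 of 103 IGFBP1-zero cells and 458 of 1309 cells of 3 months did. Summed, FSHB was 38.3, 3098 and 1488 CPM. The log2 ratio was -6.34 against IGFBP1-zero cells (interval -6.63 to -6.06) and -5.28 against 3 months (-5.57 to -5.0). At least 2 FSHB UMIs were found in 15 of 146 (10.3%, exact interval 5.87% to 16.4%), 69 of 103 (67.0%, 57.0% to 75.9%) and 691 of 1309 cells (52.8%, 50.04% to 55.5%). With the 16 cells of 1 IGFBP1 UMI added to the positive cells, the ratios were -3.94 and -2.88, since 3 of these cells exceeded 1000 CPM.

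**Figure D1:**
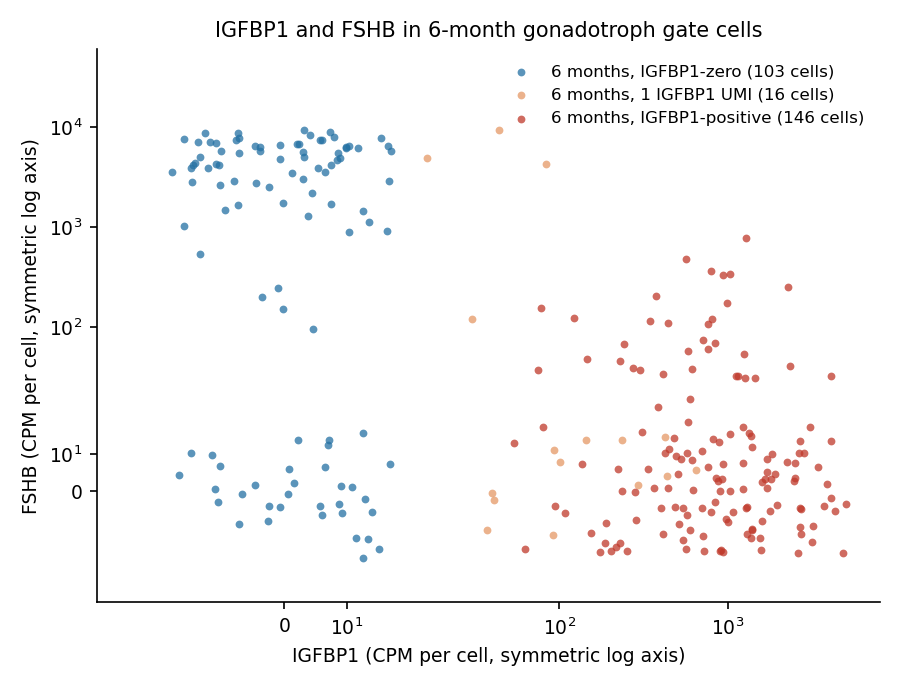
Each point is a gonadotroph of the 6-month gate, with IGFBP1 on the horizontal and FSHB on the vertical axis, both in CPM per cell on symmetric log axes, and values of 0 spread at random around 0. No IGFBP1-positive cell reaches 1000 CPM of FSHB, while 63 of 103 IGFBP1-zero cells do.

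In summed level, LHB and CGA differed less between the groups than FSHB did. The choice of cells set lower limits for LHB and CGA in each group and none for FSHB. The lower ends of the LHB and CGA ranges, and part of their overlap, were thus fixed in advance. LHB was 33512 CPM in IGFBP1-positive cells, 39559 in IGFBP1-zero cells and 26786 at 3 months, and per cell it ranged from 6749 to 86787, 3131 to 132173 and 3027 to 150646 CPM. The ranges overlap almost entirely. CGA was 276792, 131426 and 159064 CPM, log2 ratios of 1.07 and 0.80, with per-cell medians of 250228, 112055 and 138356. Its higher level in the IGFBP1-positive cells lies within a range that reaches 401122 CPM in IGFBP1-zero cells. GNRHR was 450, 262 and 336 CPM, ratios of 0.78 (0.62 to 0.94) and 0.42 (0.33 to 0.51), below 2-fold.

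Against IGFBP1-zero cells of the same library, 238 of 4801 measured genes (4.96%) were at least 2-fold higher in IGFBP1-positive cells and 169 (3.52%) lower. The median log2 ratio of all measured genes was 0.10. On plain UMI totals it was -0.20 and the counts were 127 and 366, so the split depends on the scaling. Centred on the median of all genes, the counts were 182 higher and 217 lower on the TMM scale and 182 and 218 on plain totals. In the comparisons with all IGFBP1-zero cells and with 3 months, each gene called higher or lower below kept its direction under both scalings. On plain totals PGR (0.97), CREM (0.82), ITGAV (0.76), NR3C1 (0.75) and BAG3 (0.75) were under 2-fold against IGFBP1-zero cells, and CRELD2 (0.99), ITGAV (0.94), SELENOS (0.90), NR0B1 (0.89) and BAG3 (0.81) against 3 months.

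Among the higher genes, NPPC encodes the precursor of C-type natriuretic peptide, which raises cyclic GMP through the receptor NPR2. Per cell it had a median of 2003 CPM and a highest value of 13355 in IGFBP1-positive cells, and a median of 0 and a highest value of 8921 in IGFBP1-zero cells. All but 3 of the 146 IGFBP1-positive cells had an NPPC UMI, against 41 of 103, and after thinning 123 of 127 against 24 of 87. Summed, NPPC was 3573 against 568 CPM, a log2 ratio of 2.65 (2.56 to 2.75).

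GADD45A, a gene induced by DNA damage and other stress, was 1131 against 148 CPM (2.93, interval 2.74 to 3.13), with per-cell medians of 532 and 66.8. SAT1, which acetylates polyamines for their breakdown and export, was 1017 against 182 CPM (2.49, 2.31 to 2.66), with per-cell medians of 458 and 37.3. Both genes were widespread in the positive cells, with a UMI in 130 and 120 of them, and both distributions overlap with those of IGFBP1-zero cells.

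HHIP, which encodes a decoy that binds hedgehog proteins, was found mostly in IGFBP1-positive cells. It had 250 UMIs in 77 IGFBP1-positive cells, 5 UMIs in 4 IGFBP1-zero cells and 43 UMIs in 36 cells of 3 months, a log2 ratio of 4.94 (3.70 to 6.58) against IGFBP1-zero cells. After thinning, 41 of 127, 0 of 87 and 15 of 978 cells kept a HHIP UMI. MUSK, the receptor kinase known from the neuromuscular junction, had 127 UMIs in 51 IGFBP1-positive cells and 1 UMI in each of the comparison groups, a ratio of 6.29 (3.78 to 11.60). RASSF6, a Ras association domain protein, had 176, 6 and 38 UMIs (4.17, 3.02 to 5.64). For each of these genes nearly all UMIs of both 6-month groups lay in the IGFBP1-positive cells.

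Further genes at the head of the list were PGFS, the prostaglandin F synthase gene of ruminants (44.3 against 1.82 CPM, ratio 4.61), and SUCNR1, the succinate receptor (43.9 against 3.63 CPM, 3.60). The PGFS ratio was 2.65 from the mean of CPM per cell and 3.28 after thinning to 5000 UMIs. PGFS has close relatives in its enzyme family, so reads may be split among them. ADGRF5, an adhesion receptor, was 41.7 against 2.42 CPM (4.11, 2.71 to 6.01), but 31.9 CPM at 3 months. ESM1, which encodes the secreted proteoglycan endocan, was 289 against 29.04 CPM (3.32, 2.89 to 3.77).

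A few genes rested on few cells. TAC3, the precursor of neurokinin B, was 58.1 against 1.82 CPM (5.00, 3.43 to 7.29), with UMIs in 25 of 146 cells and 40 of its 156 UMIs in 1 cell. DIO2, the deiodinase that activates thyroid hormone, was 327 against 50.8 CPM (2.69, 2.36 to 3.03). It was found in 69 cells, 1 of which held 205 of its 880 UMIs. SPP1, which encodes osteopontin, was found in 43 of 146 cells, against 8 of 103 and 48 of 1309. In IGFBP1-positive cells its highest cell held 447 of 1779 UMIs and in IGFBP1-zero cells 186 of 350, and the log2 ratio of 1.64 became 2.32 without those cells and 0.73 with the mean of per-cell CPM.

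Behind FSHB, the genes lower in IGFBP1-positive than in IGFBP1-zero cells were led by PGF, which encodes placental growth factor. It had 4 UMIs in 4 IGFBP1-positive cells and 164 UMIs in 52 of 103 IGFBP1-zero cells, a ratio of -6.06 (-7.95 to -4.68). At 3 months it had 21 UMIs in 17 of 1309 cells. VCAN, the matrix proteoglycan versican, was 64.4 against 375 CPM (-2.54, -2.79 to -2.29). CMBL, a hydrolase, was 40.9 against 284 CPM (-2.80), and GAMT, which makes creatine, 29.03 against 171 CPM (-2.56).

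The remaining lower genes included CELA1, an elastase (-3.07), UNC13D, a priming factor for granule release (-2.91), DBP, a clock output factor (-2.56), and SCN9A, a voltage-gated sodium channel (-2.56). DBI, an acyl-CoA binding protein, was 159 against 711 CPM (-2.16). HSPA1A, a heat shock protein gene with near-identical copies, was 238 against 1046 CPM (-2.14) but 149 CPM at 3 months. IL18BP, the interleukin 18 binding protein, stood at -3.12, yet 1 cell carried this value: without the highest cell of each group the ratio was -0.20, and without cells bearing signs of another type 0.32.

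**Figure D2:**
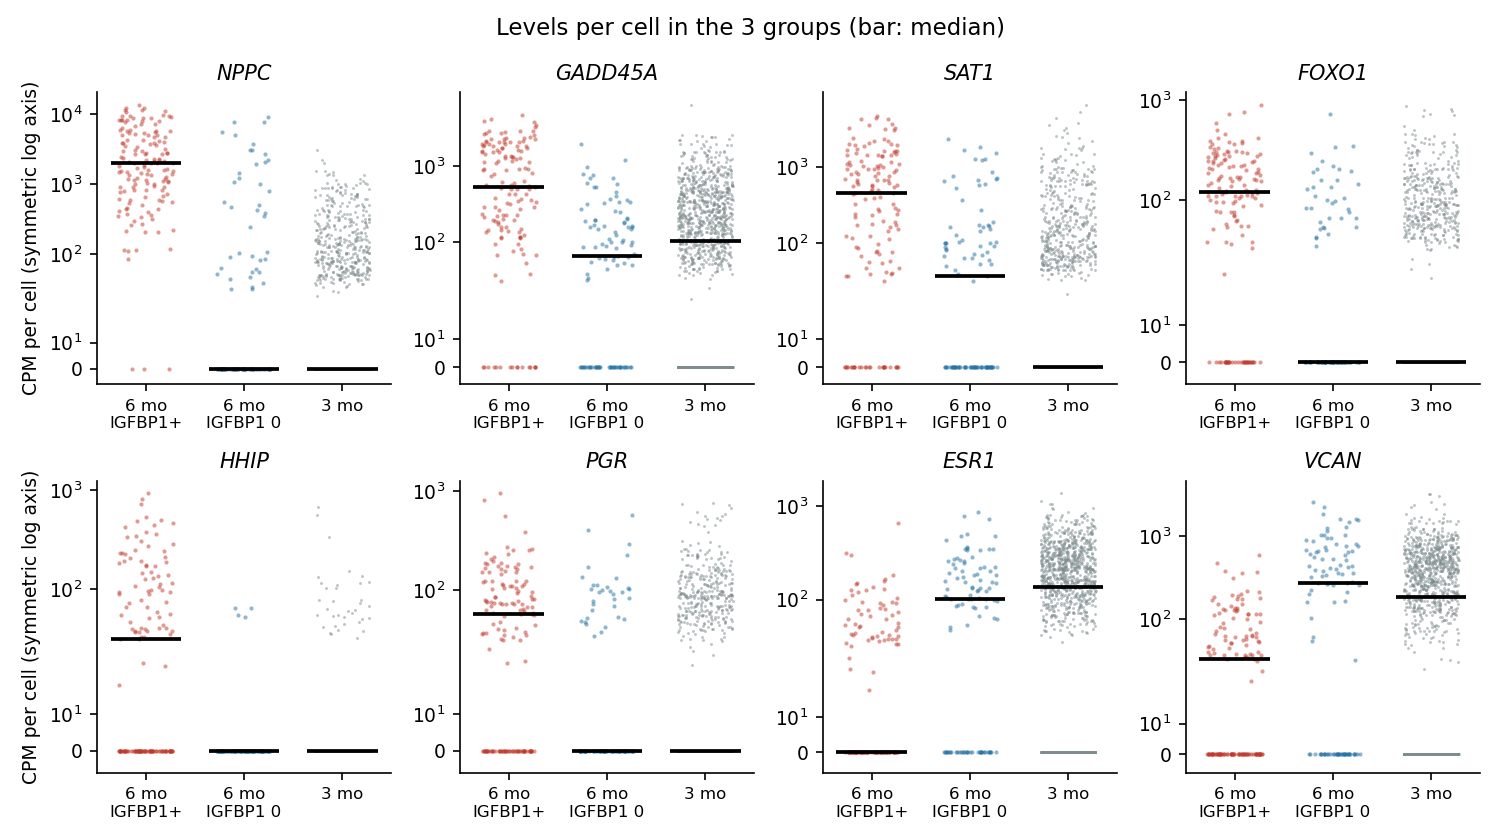
Each point is a cell, with the level of 1 gene in CPM per cell on a symmetric log axis, for the 146 IGFBP1-positive cells, the 103 IGFBP1-zero cells and the 1309 cells of 3 months; black bars are medians. NPPC, GADD45A, SAT1, FOXO1, HHIP and PGR have higher medians or more cells above 0 in IGFBP1-positive cells, and ESR1 and VCAN lower medians.

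Signs of other cell types were present in each group. Scrublet called 9 of 146 IGFBP1-positive, 4 of 103 IGFBP1-zero and 126 of 1309 cells of 3 months doublets. PRL was at 5% of UMIs or more in 13, 4 and 34 cells, and at least 20 UMIs of macrophage markers were found in 4, 4 and 17 cells. Summed over the lists, the 8 lactotroph markers held 38896, 19233 and 10231 CPM, nearly all of it PRL, and the 9 listed macrophage markers 246, 264 and 180 CPM. Endothelial markers held 52.5, 31.5 and 165 CPM, fibroblast and mural markers 30.9, 39.9 and 57.8 CPM, and T, NK and B cell markers 22.0, 15.1 and 7.85 CPM. Erythroid markers were at 0 UMIs in both 6-month groups. With doublets, cells with at least 5 macrophage UMIs and cells with PRL at 5% or more left out, 224 of the 238 higher and 162 of the 169 lower genes were still at least 2-fold apart the same way. That check was chosen after the data had been seen.

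IGFBP1-zero cells were themselves of 2 kinds, which bears on these ratios. Of the 103, 69 had at least 2 FSHB UMIs and 34 had fewer. On plain totals, NPPC was 28.7 CPM in the 69 and 2069 CPM in the 34, beside 3284 CPM in the 131 IGFBP1-positive cells with under 2 FSHB UMIs. At least 2 NPPC UMIs were found in 5 of 69, 21 of 34 and 140 of all 146 IGFBP1-positive cells, here counted as 15 of 15 and 125 of 131. SPP1 was 0.924 CPM in the 69, 795 in the 34 and 631 in the 131, and KLHL41 1.85, 125 and 113 CPM. Among IGFBP1-zero cells, transcripts of NPPC, SPP1 and KLHL41 thus lay mostly in those with little FSHB. The 15 IGFBP1-positive cells with at least 2 FSHB UMIs held 2234 CPM of NPPC, 273 of SPP1 and 132 of KLHL41. Their FSHB was only 196 CPM, against 4732 CPM in the 69, so the limit does not mark cells of like FSHB level.

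In contrast, MUSK had 0 UMIs and HHIP 3 in the 34 IGFBP1-zero cells with little FSHB, against 113 and 226 in the 131. On plain totals this was 0 against 42.8 CPM for MUSK and 6.84 against 85.6 CPM for HHIP. PGF lay in the other kind, with 160 of its 164 UMIs in the 69 cells with FSHB. These cells also held the highest LHB, 50043 CPM, against 25627 in the 34 and 29713 in the 131. ESR1 was 186, 59.2 and 40.9 CPM in the same order. At 3 months, low FSHB did not go with NPPC: the 618 gate cells with under 2 FSHB UMIs held 102 CPM and the 691 others 115 CPM. The 34 cells were shallow, with a median of 10776.5 UMIs against 21109 in the 131.

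**Figure D3:**
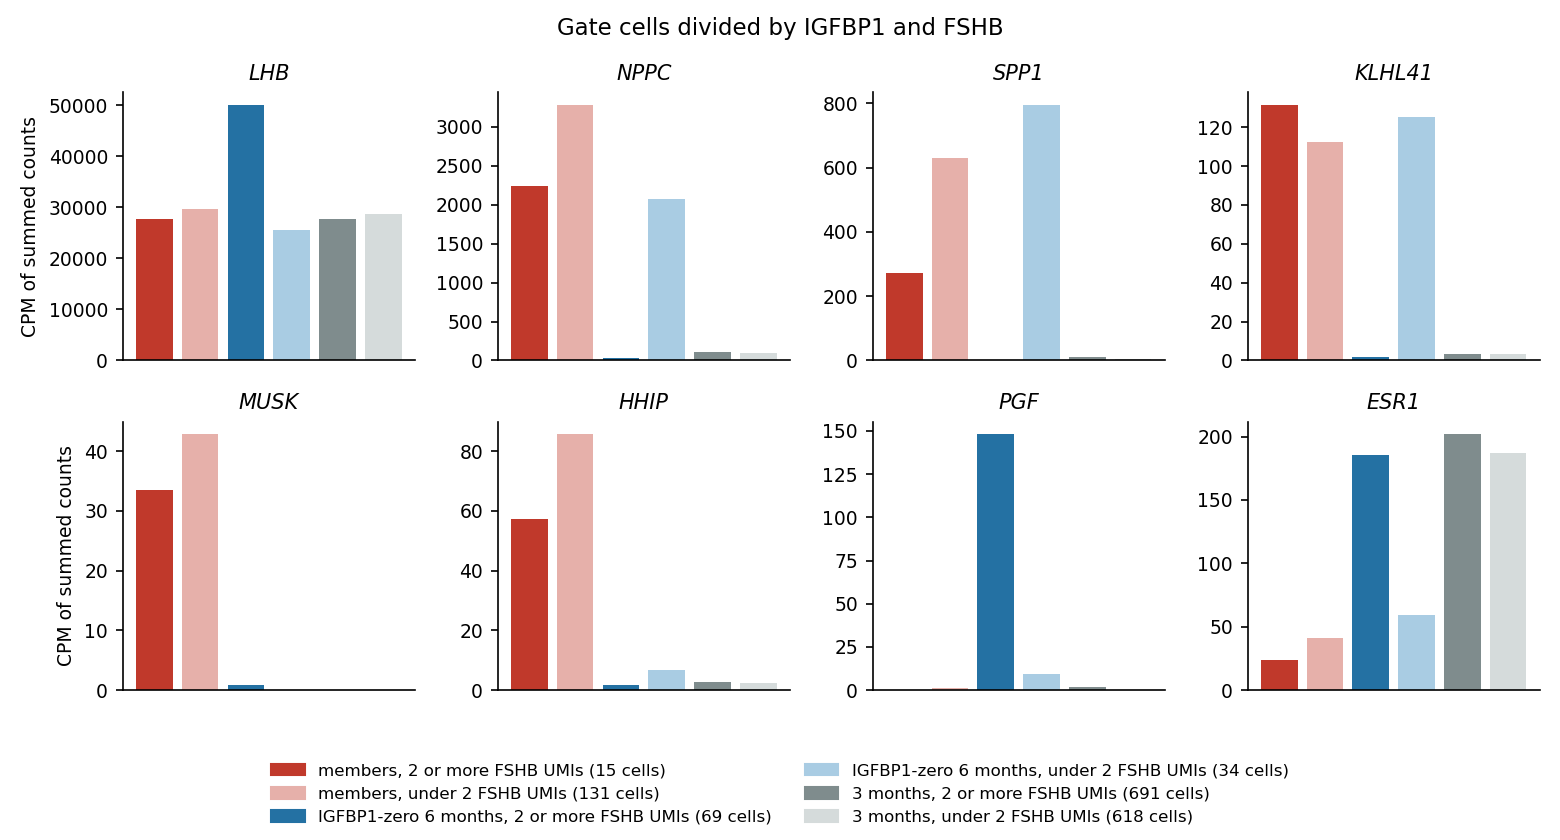
Bars give CPM of summed counts on plain totals for 8 genes in gate cells divided by library, IGFBP1 and FSHB, with the number of cells in the key and no error bars. NPPC, SPP1 and KLHL41 are high in IGFBP1-positive cells on both sides of the FSHB limit and in IGFBP1-zero cells with under 2 FSHB UMIs, while MUSK and HHIP are high in IGFBP1-positive cells and PGF in IGFBP1-zero cells with FSHB. Past the limit, FSHB was 196 CPM in IGFBP1-positive and 4732 CPM in IGFBP1-zero cells.

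Compared with the 34 cells alone, 104 of the 238 higher genes were still at least 2-fold higher and 5 went the other way. Of the 169 lower genes, 53 were still at least 2-fold lower and 27 went the other way. GADD45A stood at 2.22, HHIP at 3.95, RASSF6 at 3.03, SUCNR1 at 3.46, ESM1 at 1.82, DIO2 at 1.55 and SAT1 at 1.47 on the log2 scale. NPPC stood at 0.98 and KLHL41 at 0.25, and SPP1 (-0.08) and CHRDL2 (-0.06) lay on the other side of 0. VCAN turned from -2.54 to 1.01, JUN from -1.23 to 0.55 and RESP18 from -1.88 to 3.51. FSHB turned to 4.26, as the 34 cells were picked for its absence. GAMT (-0.39), DBI (-0.60), HSPA1A (-0.73) and DBP (-0.97) were under 2-fold lower against the 34 cells. CELA1 (-3.36), SCN9A (-2.22) and FOXL2 (-1.37) were at least 2-fold lower against them too. This division of the comparison cells was chosen after their values had been seen.

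Among 19 measured genes of gonadotroph identity and hormone production, FSHB, ESR1, FOXL2, PITX1 and EGR1 were lower in IGFBP1-positive cells than at 3 months and PGR, SCG3 and NR0B1 higher. Against IGFBP1-zero cells, FSHB, ESR1, FOXL2 and GATA2 of 17 were lower and PGR higher. The background for this list and those below is the share over all measured genes. It was 5.64% higher and 8.35% lower against 3 months, and 4.96% and 3.52% against IGFBP1-zero cells. ESR1, the estrogen receptor alpha gene, was 43.9, 137 and 188 CPM in the order used so far, log2 ratios of -1.65 and -2.10; against the 34 IGFBP1-zero cells with little FSHB it was -0.25. PGR, the progesterone receptor gene and a known estrogen target, was 88.2, 36.3 and 30.5 CPM (1.28 and 1.53), and 0.29 against the 34. FOXL2 was 37.2, 89.6 and 102 CPM (-1.27 and -1.45). Thus ESR1 was lower and PGR higher than in both full comparison groups, but neither was 2-fold apart from the 34 cells. The counting intervals of the full comparisons exclude 0 but do not cover the spread among cells.

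In the list of known fasting and FOXO genes, FOXO1, which encodes a factor that activates IGFBP1 in liver, was 179, 47.2 and 43.5 CPM. The log2 ratios were 1.93 (1.58 to 2.29) and 2.05 (1.88 to 2.21), and 1.68 against the 34 IGFBP1-zero cells with little FSHB. A FOXO1 UMI was found in 113 of 146, 37 of 103 and 415 of 1309 cells, and after thinning in 68 of 127, 20 of 87 and 203 of 978. FBXO32, a ubiquitin ligase gene known as a FOXO target in muscle, was 195, 62.9 and 39.0 CPM (1.63 and 2.32). These were the 2 higher genes of 7 measured against IGFBP1-zero cells, with none lower and a list median of -0.37. Against 3 months, 2 of 11 were higher and PDK4 (-1.36), TRIB1, CITED2 and BCL6 lower, with a list median of -0.74.

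On the TMM scale, none of the 7 other measured genes of the insulin-like growth factor axis was 2-fold apart from IGFBP1-zero cells. IGFBP2 was 3623, 4076 and 4509 CPM, IGFBP3 572, 426 and 288, and IGFBP5 1282, 2236 and 1653. On plain totals IGFBP5 was lower than in IGFBP1-zero cells by more than 2-fold (-1.11). The receptor IGF1R was 193, 193 and 253 CPM. Against 3 months, STC1, which encodes an inhibitor of the IGFBP proteases of the pappalysin family, was higher (271 against 57.9 CPM, 2.22) and IGFBP7 lower (160 against 320 CPM, -1.003), of 12 measured. In IGFBP1-zero cells STC1 was 148 CPM, and against the 34 of them with little FSHB the log2 ratio was -0.49.

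Of 10 secreted peptides and growth factors measured against IGFBP1-zero cells, NPPC, TAC3, SPP1, CHRDL2, TGFB2, ADM and VEGFA were higher and PGF lower, beside 4.96% and 3.52% of all genes. Their median log2 ratio was 1.68, beside 0.10 for all genes. Against the 34 IGFBP1-zero cells with little FSHB, TAC3 (3.27) and VEGFA (1.20) were still at least 2-fold higher on the TMM scale. NPPC (0.98), TGFB2 (0.79), ADM (0.47), CHRDL2 (-0.06) and SPP1 (-0.08) were not. VEGFA lay near the 2-fold limit, where the scaling matters, and TAC3 had 3 UMIs in 1 of the 34 cells. Several were known from earlier results when the list was written, so the count is a description. TGFB2, a transforming growth factor, was 90.1, 23.6 and 13.3 CPM (1.93 and 2.76). VEGFA, the vascular endothelial growth factor gene, was 188, 75.03 and 55.3 CPM (1.33 and 1.77). ADM, which encodes adrenomedullin, was 58.4, 18.2 and 17.7 CPM (1.69 and 1.72). CHRDL2, an antagonist of bone morphogenetic proteins, had 124 UMIs in 37 IGFBP1-positive cells, 24 in IGFBP1-zero cells and 0 at 3 months. Set against the limit of 3 counts over the 3-month group, this is a log2 ratio of at least 7.99.

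VEGFA and ADM were also the 2 higher genes of 11 measured in the hypoxia list, beside 4.96% of all genes. The posterior lobe hormone gene OXT was 147, 44.8 and 32.8 CPM (1.71 and 2.17), with a UMI in 87 of 146, 37 of 103 and 296 of 1309 cells, and in 39 of 127, 15 of 87 and 115 of 978 after thinning. AVP, the other hormone gene of that lobe, had 4, 0 and 30 UMIs.

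Of 14 measured genes of the cyclic AMP response, 4 were higher than in IGFBP1-zero cells and none was lower. The shares over all genes were 4.96% and 3.52%. The 4 were CREM (1.13), PDE4D (1.69), PDE10A (1.88) and DIO2 (2.69). CREM encodes a regulator of cyclic AMP target genes, and PDE4D and PDE10A encode phosphodiesterases that degrade the messenger. CREM stood at 0.17 and PDE10A at 0.50 against the 34 IGFBP1-zero cells with little FSHB. Against 3 months the same 4 genes, VGF (2.47) and NR4A3 (1.45) were higher of 15, and NR4A1 (-2.16), FOSB (-2.29) and RGS2 (-1.80) lower.

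Other lists had few genes apart from IGFBP1-zero cells, beside 4.96% of all genes higher and 3.52% lower. Of 19 unfolded protein response genes, 9 of the amino acid and integrated stress response and 13 of oxidative phosphorylation, none was apart. NR3C1, the glucocorticoid receptor gene, was the only gene apart of 8 in the glucocorticoid list (1.06). In the interferon list 3 of 6 were lower, among them MX1 (-2.22), which encodes an antiviral protein, and IRF9 (-1.49), an interferon regulatory factor. Among 21 genes of prohormone processing and granules, RESP18 (-1.88) and RAB3A (-1.02) were lower. In the matrix list ITGAV was higher (1.07) of 5, and in the heat shock list BAG3 higher (1.06) and HSPA1A lower of 13. Against the 34 IGFBP1-zero cells with little FSHB, NR3C1 (2.56) and MX1 (-1.03) were still at least 2-fold apart. There, on the TMM scale, ITGAV (0.43), BAG3 (0.17), HSPA1A (-0.73), RAB3A (-0.31) and IRF9 (-0.47) were not, and RESP18 turned to 3.51.

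**Figure D4:**
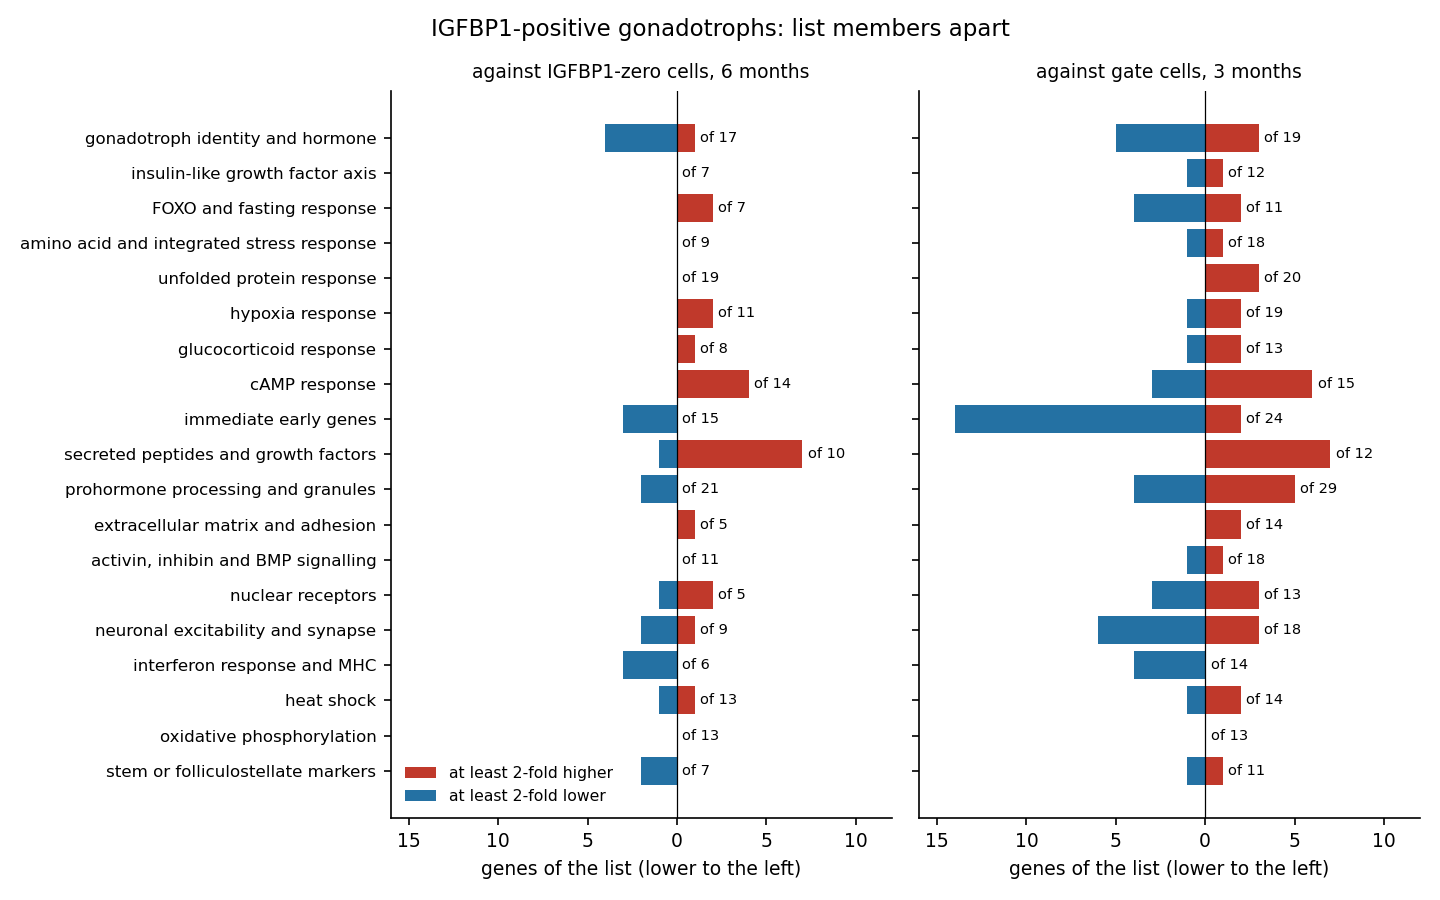
Bars give, for each gene list with at least 5 measured genes, how many were at least 2-fold higher (right) or lower (left) in IGFBP1-positive cells, with the number measured beside them. Immediate early genes are the list with the most lower genes against 3 months, 14 of 24, and secreted peptides and growth factors have 7 of 12 higher. Over all measured genes, 8.35% were lower and 5.64% higher than at 3 months.

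Against the 3-month gonadotrophs, 562 of 9970 measured genes (5.64%) were at least 2-fold higher in IGFBP1-positive cells and 832 (8.35%) lower, with a median log2 ratio of -0.03. On plain totals the counts were 314 and 1252 and the median was -0.28. For comparison, IGFBP1-zero 6-month cells had 110 of 9779 genes (1.12%) higher than at 3 months and 243 (2.48%) lower. The comparisons share their 3-month cells, and IGFBP1-zero cells are fewer and shallower, so the counts are set side by side only.

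The higher genes were led by CHRDL2, MUSK (9.61, 7.11 to 14.93) and SPP1, which was 662 CPM against 7.73 at 3 months (6.42, 6.16 to 6.69) and 212 in IGFBP1-zero cells. NPPC was 3573 against 105 CPM (5.08, 5.01 to 5.16). TAC3 (5.91), HHIP (5.16), PGFS (5.27), DIO2 (4.54) and RASSF6 (4.84) followed, with CPM of 0.966, 2.59, 1.15, 14.1 and 2.29 at 3 months. KLHL41, known as a kelch protein of muscle, was 131, 34.5 and 3.14 CPM (5.38 against 3 months) and was found in 85 of 146, 14 of 103 and 42 of 1309 cells. MAOB, a monoamine oxidase, was 79.6, 10.3 and 2.17 CPM (5.20) and found in 84, 11 and 32 cells. GREB1, known as an estrogen-induced gene, had 88, 9 and 13 UMIs (5.38).

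The summed levels of NPPC, SPP1, KLHL41, MAOB and DIO2 in IGFBP1-zero 6-month cells lay between the other 2 groups, but these are averages over unlike cells. The 69 IGFBP1-zero cells with at least 2 FSHB UMIs were set beside the 3-month gate cells past the same limit. FSHB itself was 4732 and 2332 CPM in these groups. NPPC was 28.7 against 115 CPM, and SPP1 0.924 against 10.2 CPM, with 1 SPP1 UMI in the 69 cells. KLHL41 was 1.85 against 3.23 CPM, with 2 UMIs in the 69 cells, too few to rank the groups. MAOB and DIO2 went the other way. MAOB was 4.62 against 2.09 CPM, with 5 UMIs in the 69 cells, and DIO2 25.9 against 11.3 CPM, with 28 UMIs in the 69 cells. PCSK1, the prohormone convertase, was 454, 254 and 36.2 CPM (3.65 against 3 months). Against the 34 IGFBP1-zero cells with little FSHB its log2 ratio was -0.51. For HHIP, ESM1 and FOXO1, IGFBP1-zero cells and 3-month cells lay close together, at 3.03 and 2.59 CPM for HHIP, 29.04 and 30.2 for ESM1 and 47.2 and 43.5 for FOXO1.

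The granule list had 5 of 29 genes higher than at 3 months and 4 lower, beside 5.64% and 8.35% of all genes. The higher ones were PCSK1, VGF (2.47), PTPRN (1.58), SCG3 (1.49) and RESP18 (1.30). SCG3, a granin that sorts hormones into granules, was 1637, 1002 and 583 CPM. Against the 34 IGFBP1-zero cells with little FSHB, PCSK1 (-0.51), VGF (-0.78), PTPRN (-0.30) and SCG3 (-0.11) were not higher, while RESP18 was (3.51). In the unfolded protein response list EDEM1 (1.35), CRELD2 (1.24) and SELENOS (1.15) of 20 were higher, with a list median of 0.68 that was 0.43 on plain totals, where none of the 20 counted as apart. IGFBP1-zero cells had a median of 0.47 for the same list against 3 months.

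Lower than at 3 months, behind FSHB, were EGR4 (1.86 against 110 CPM, -5.88), BST1 (12.3 against 376 CPM, -4.93, with 58.1 in IGFBP1-zero cells) and CDH13 (2.23 against 71.3 CPM, -4.998). BST1 encodes an ectoenzyme that makes cyclic ADP-ribose, and CDH13 encodes an anchored cadherin. GPC3, a glypican, had 0 UMIs in IGFBP1-positive cells against 29 in IGFBP1-zero cells and 389 at 3 months. Against the limit of 3 counts its log2 ratio was at least 4.39 below 3 months. PRR16, with 0, 13 and 286 UMIs, was at least 3.95 below.

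LRRC17 (2, 4 and 603 UMIs, -5.61), GSG1L (4, 12 and 615, -4.64), SMIM5 (10, 50 and 1125, -4.19) and AFF3 (1, 12 and 342, -5.79) completed the named genes, with H1-2, a linker histone gene of a multigene family (-4.77). MSMB, which encodes beta-microseminoprotein, is no member of that rule. It was 171, 242 and 1173 CPM, -2.78 against 3 months and -0.50 against IGFBP1-zero cells.

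Immediate early genes respond within minutes to stimulation. They were the list with the most genes lower than at 3 months: 14 of 24, beside 8.35% of all genes. FOSL2 (2.17) and NR4A3 were higher, and the list median was -1.82. FOS was 773, 2227 and 3848 CPM, with per-cell medians of 225, 989 and 2718. ATF3 was 56.2, 104 and 609 CPM (-3.44 against 3 months), EGR1 11.2, 37.5 and 59.5 (-2.41) and NR4A1 111, 186 and 497 (-2.16). IGFBP1-zero 6-month cells showed 8 of 24 lower and a list median of -0.76 against 3 months. Against IGFBP1-zero cells, FOS (-1.53), JUN and JUNB (-1.12) were lower in IGFBP1-positive cells, of 15 measured, and FOS was -0.19 against the 34 cells with little FSHB. Both 6-month groups came from another library than the 3-month cells, and the part of tissue handling in these levels was not tested.

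The remaining lists gave mixed counts against 3 months, beside 5.64% of all genes higher and 8.35% lower. Of 13 nuclear receptors, PGR, NR3C1 (1.35) and NR0B1 (1.14) were higher and ESR1, THRA (-1.75) and NR1D2 lower. Of 14 interferon genes, 4 were lower, among them ISG15 (-2.85), MX1 (-2.82) and IRF9 (-2.18), and none was higher. Of 18 excitability and synapse genes, 3 were higher, MUSK among them, and 6 lower, SCN9A (-2.67) among them. The activin, inhibin and BMP list had ACVR1 higher and BMP2 lower of 18, and no natriuretic peptide or calcitonin receptor gene was apart of 6 measured.

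**Figure D5:**
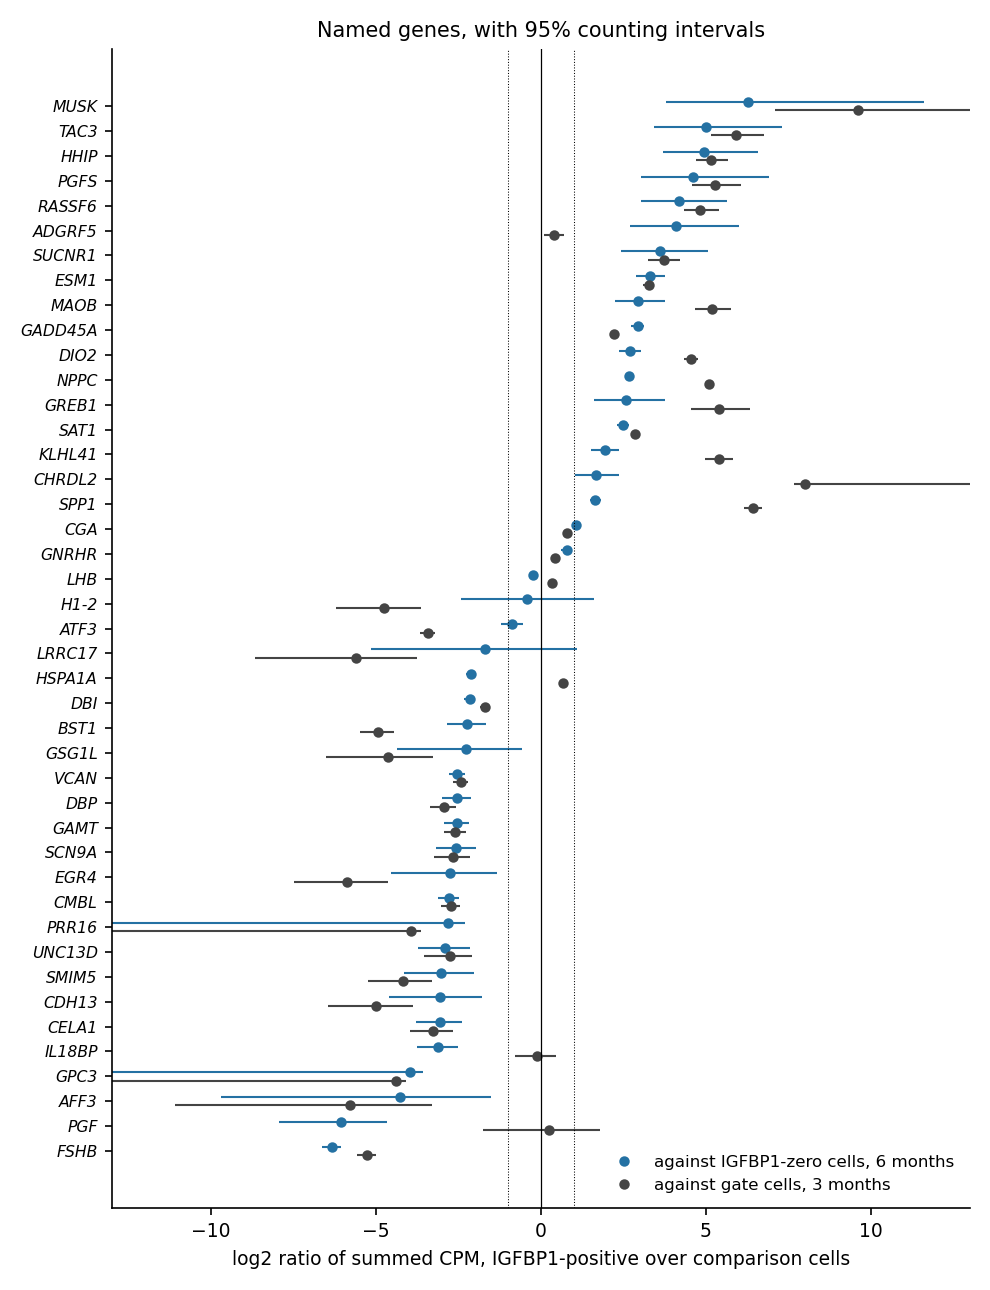
Points are log2 ratios of summed CPM for the genes named by rule, IGFBP1-positive over IGFBP1-zero cells (blue) and over 3-month gate cells (grey), with 95% counting intervals cut at the frame; genes with 0 UMIs in a group are set at the limit of 3 counts. FSHB lies at -6.34 and -5.28, and HHIP, MUSK, TAC3, PGFS and RASSF6 lie above 4 in both comparisons.

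Among IGFBP1-positive cells the level of IGFBP1 varied 94.5-fold from the lowest to the highest cell. Divided into 3 like parts by IGFBP1 CPM, the lower 49, middle 48 and upper 49 cells held 295, 846 and 2326 CPM at median depths of 25604, 18395 and 16366 UMIs. NPPC was 3058, 3121 and 3300 CPM and FSHB 32.1, 38.3 and 30.6 CPM across these parts, so neither followed the amount of IGFBP1. GNRHR was 292, 330 and 648 CPM (1.15 between the upper and lower part, 0.96 to 1.35) and GADD45A 664, 1025 and 1505 CPM (1.18, 1.05 to 1.31). ADM (2.12), PEG10 (1.73) and MDM2 (1.55) were also higher in the upper part, while FOS was lower (-1.81). Of 2242 genes measured between the outer parts, 24 were higher and 35 lower in the upper one. The lower ones included the macrophage genes C1QA, C1QB and C1QC; macrophage markers held 487, 145 and 29 UMIs in the lower, middle and upper part and Scrublet doublets numbered 6, 3 and 0. PRL was 59024, 23968 and 4987 CPM across these parts (-3.57) and GH 143, 888 and 1349 CPM (3.24), with 46.1% of the GH UMIs of all IGFBP1-positive cells in 1 cell. The part of these other cell types and of depth in the differences between these cells was not tested.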

How the data were processed

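Per barcode and gene, the authors deposited unnormalized UMI counts, 1 matrix for each age, with feature and barcode lists of other, non-numeric entries. The submitters' processing notes name Cell Ranger 5.0.0, and the counter is 5.0.1 per the file headers. For genome build and filters, the entry is: not given in the sources used here. Of 23141 genes, 22726 identifiers matched a RefSeq gene table, used for names alone. No mitochondrial share was used. Kept cells passed 500 genes and 1000 UMIs. Counts were summed over each group of cells and scaled by TMM of edgeR 4.0.16 (R 4.3.3) across the 3 groups. Ratios carry exact conditional binomial intervals, and shares exact binomial ones, at 95%. A count of 0 was set at 3 counts over the group. Scrublet (scanpy 1.11.5) marked doublets, which stayed in the main values. The steps were tested on simulated data.

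Genes named are those of the choice of cells with FSHB and GNRHR, then for each comparison at most 12 that were higher and 12 that were lower, ordered by the interval bound nearer to 0, and members of each list. Further list members, MSMB, AVP, TSHB, POMC, PEG10 and the FSHB division were picked after their values were seen. Cells and lists were chosen with earlier results of these data known. Alternatives changed scaling, count minimum, IGFBP1 limit, depth, doublets, gate, free RNA and fold. A few genes of the interferon and excitability lists are not reported here.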

Additional observations from a re-analysis of the deposited data

Results flagged for a closer look

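Outside the gonadotroph gate, 18 kept cells of the 6-month library held at least 2 IGFBP1 UMIs, in data that no comparison uses, while no cell of the 3-month library did. Of these, 16 had PRL at 25% of UMIs or more (median of the 18: 29.6%). LHB and CGA were both past the limits of the gate in 13, with a median CGA of 7.71% over the 18. Their highest IGFBP1 count was 20 UMIs and their median 6.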

How the results depend on the processing

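No paired analysis was possible because there is 1 library per age. Of 2490 values recomputed for named genes, 8 reversed a gene that counted as apart. These reversals all came from checks chosen after seeing the data: against IGFBP1-zero cells with under 2 FSHB UMIs alone CHRDL2 was -0.058, FSHB 4.26, JUN 0.55, RESP18 3.51, SPP1 -0.078 and VCAN 1.01; against 3-month cells with under 2 FSHB UMIs alone FSHB was 1.41; and without cells bearing signs of another type IL18BP was 0.32. FSHB reversed because those comparison cells were chosen to lack it; for the others the cause was not tested.

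Higher and lower counts against IGFBP1-zero cells (238 and 169) became 127 and 366 on UMI totals, 139 and 468 with the mean of per-cell CPM, 620 and 684 with at least 20 counts, 628 and 728 with no minimum, 73 and 43 in cells thinned to 5000 UMIs, and 79 and 48 at 3-fold. The lower count was 63 against the 34 cells with little FSHB. Against 3 months (562 and 832) they became 314 and 1252 on totals, 372 and 1362 with per-cell means, and 175 and 334 at 3-fold, and the higher count was 277 after thinning. The share of gate cells with at least 2 IGFBP1 UMIs became 43.1% after thinning. Thinning, higher fold and lower minimum change how many genes can pass. The other alternatives left each count within 1.5 times. Depth limits genes below about 100 summed UMIs.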

Other observations

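A few secreted peptide and receptor genes came from single cells. CALCB, a calcitonin gene-related peptide gene, had 187 UMIs in 3 IGFBP1-positive cells, 185 of them in 1 cell, and 0 in both comparison groups. GABRA3, a GABA receptor subunit gene, had 141 UMIs in 4 IGFBP1-positive cells, 102 of them in 1. TAC1, the substance P precursor gene, had 184 UMIs in 5 IGFBP1-zero cells, 174 of them in 1, and 10 UMIs in 2 IGFBP1-positive cells. None of these genes reached 10% of the cells of a group.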
